A study of Oryctolagus cuniculus with 6 samples.

Results

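The genes described here are 10 genes that mark the cells of blood vessels: 9 endothelial genes (VWF, CDH5, CLDN5, PECAM1, ERG, TIE1, TEK, ESAM and EGFL7) and 1 pericyte gene (RGS5). They were matched by symbol and are 10 of the 28788 genes in the deposited tables. Of these, the 3 genes VWF, CDH5 and RGS5 were chosen by their measured values, since they had been seen to be lower in proliferative vitreoretinopathy (PVR), and their values are given as a description without a p. The other 7 were named for what they encode, with earlier results of these data known. Retinal tissue of Oryctolagus cuniculus (rabbit) was compared between a normal group and a PVR group with 3 samples each. In the PVR group the sclera of adult rabbits was punctured, vitreous was drawn off and platelet-rich plasma was injected into the eye. The normal group carried no such injury according to its label, and the strain, the time of collection and whether the 3 samples of a group were separate animals are not given in the sources used here. The p-values therefore measure the spread between these samples only.

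Endothelial cells line the vessels and are held together by adherens and tight junctions, which in the retina form the inner blood-retinal barrier. Pericytes wrap the capillaries from outside and steady them. In most mammals vessels spread over the whole inner retina, but in rabbits they keep to a band on each side of the optic disc, the medullary rays, together with the myelinated nerve fibres and the retinal astrocytes. The remainder of the rabbit retina has no vessels and is fed from the choroid. Endothelial cells are therefore a small part of a rabbit retina. In bulk tissue, fewer cells of a type and less RNA per cell cannot be told apart.

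The libraries held between 31904593 and 43035080 counted reads. Of 8 photoreceptor genes examined as a check of the tissue, 7 were matched, and all 7 passed the filter on low counts. In normal replicate 2, 8 lens genes took 3.12% of all counts, against 0.00121% to 0.0308% in the other 5 libraries, so results were also computed without that library. All 10 genes passed edgeR's filter on low counts, which kept 18697 genes. CDH5, CLDN5, ERG and RGS5 did so only through the normal libraries, since fewer than 3 of their PVR libraries reached the filter's cutoff, and their fitted differences are conditioned on being high in the normal group.

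Levels of different genes were compared on the FPKM scale, which divides the counts by gene length and depth. The lengths behind these values ran from 1463 bases for CLDN5 to 8811 bases for VWF. In the normal retinas CLDN5 had the highest mean FPKM at 2.71 ± 2.17 (SD, n = 3), followed by RGS5, ESAM and VWF at 2.29 ± 1.80, 2.09 ± 0.350 and 1.69 ± 1.01. EGFL7, PECAM1, CDH5, TEK and TIE1 followed at 0.606 to 0.185. ERG was lowest at 0.125 ± 0.0703. Every gene overlapped the next one in this order in its range over samples, so neighbours did not differ beyond their spread. In the PVR retinas the order was different. ESAM had the highest mean FPKM at 1.55 ± 0.0723 (SD, n = 3) and did not overlap PECAM1, the next gene, at 0.588 ± 0.206. CLDN5 stood at the fourth place, VWF and RGS5 at the seventh and eighth, and ERG and CDH5 were last at 0.00303 and 0.00183.

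VWF encodes von Willebrand factor, which endothelial cells store and release to bind platelets. It had 228, 620 and 950 counts in normal replicates 1 to 3 and 14, 13 and 25 in PVR replicates 1 to 3, or FPKM values of 0.664, 1.72 and 2.69 against 0.0498, 0.0456 and 0.0659. The normal retinas differed among themselves by nearly 4-fold (3.97 between replicates 3 and 1), and even the lowest of them was 10.4-fold above the highest PVR sample in CPM, the counts scaled to library size. The ratio of the mean CPM was 32.9, and the fitted log2 fold change was -5.02, with a standard error (SE) of 0.55.

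CDH5 encodes VE-cadherin, the adhesion protein of endothelial adherens junctions. Its counts were 24, 41 and 103 in the normal retinas and 0, 0 and 1 in the PVR retinas. The PVR retinas were thus all at or under 3 counts, the limit used here for detection, and CDH5 was at least 17.0-fold lower in mean CPM against that limit in each PVR library. RGS5, a regulator of G-protein signalling that marks pericytes, had 133, 485 and 953 counts in the normal retinas and 3, 10 and 10 in the PVR retinas. Its FPKM was 0.600, 2.09 and 4.18 against 0.0165, 0.0544 and 0.0409. No PVR sample came near a normal one, and the lowest normal sample was 11.7-fold above the highest PVR sample in CPM. The fitted log2 fold change of RGS5 was -5.97 (SE 0.81). These 3 genes were selected on this difference, so it supports nothing further.

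**Figure D1:**
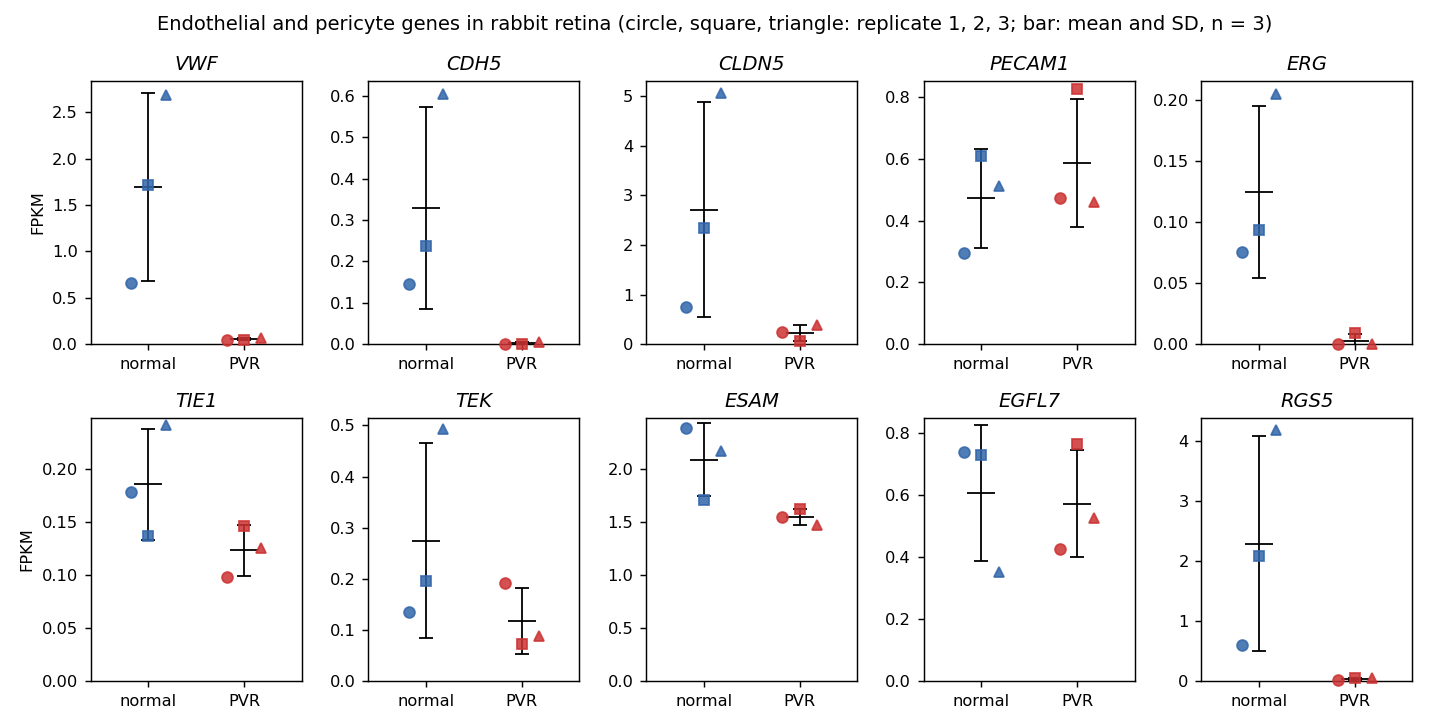
FPKM of each of the 10 genes (vertical axis, linear and starting at 0, with its own scale in every panel) in the 3 normal and 3 PVR retinas; symbols are single samples and bars are the mean and SD, cut at 0. VWF, CDH5, CLDN5, ERG, ESAM and RGS5 have all 3 PVR retinas below all 3 normal retinas, and normal replicate 3 (triangle) is the highest normal sample in VWF, CDH5, CLDN5, ERG, TIE1, TEK and RGS5.

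Among the genes of endothelial contacts that were not chosen on their values, CLDN5, the claudin of endothelial tight junctions, differed most. It had 43, 139 and 296 counts in the normal retinas and 11, 3 and 24 in the PVR retinas, with FPKM values of 0.754, 2.33 and 5.05 against 0.236, 0.0634 and 0.381. The groups did not overlap, but normal replicate 1 was only 2.04-fold above PVR replicate 3 in CPM. The log2 fold change was -3.59 (SE 0.82) and the quasi-likelihood test of edgeR gave an adjusted p of 0.0781 (Benjamini-Hochberg, over all genes tested), so CLDN5 did not pass. DESeq2 gave an adjusted p of 1.87e-05, and over all 14 alternatives it ran up to 0.297. Because CLDN5 passed the filter only through the normal libraries, its p-values are conditioned on being high there and support nothing further.

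ESAM, an immunoglobulin-like adhesion molecule of endothelial tight junctions and platelets, varied least of the 10 genes among the normal retinas. Its FPKM was 2.39, 1.71 and 2.17 in the normal retinas and 1.55, 1.62 and 1.47 in the PVR retinas. The groups did not overlap, though the nearest samples were close, and the log2 fold change was -0.50 (SE 0.22, edgeR adjusted p = 0.241). PECAM1 is an adhesion molecule of endothelial contacts that leukocytes and platelets also carry. It had 39, 84 and 69 counts in the normal retinas and 51, 90 and 67 in the PVR retinas. The groups overlapped in part, with a log2 fold change of 0.23 (SE 0.39, edgeR adjusted p = 0.757). Its sign was not stable, since it was -0.01 without normal replicate 1 and -0.08 without PVR replicate 2. Leukocyte genes also had higher values in PVR. The summed FPKM of 8 such genes was 8.51 to 17.2 in the normal retinas and 23.4 to 34.9 in the PVR retinas, and all 8 had a higher fitted value in PVR, although none passed edgeR's thresholds. Of the 8, 6 had an unadjusted p under 0.05, against 21.2% of all genes tested. DESeq2 called 3 of the 8 higher, against 564 of 20052 genes with an adjusted p. Their part in the PECAM1 value was not tested.

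TEK (also called TIE2) is the endothelial receptor for angiopoietins, and TIE1 is its partner receptor. TEK had 25, 38 and 94 counts in the normal retinas and 29, 11 and 18 in the PVR retinas. PVR replicate 1 lay above normal replicate 1, so the groups overlapped. The log2 fold change was -1.29 (SE 0.62, edgeR adjusted p = 0.277) and rested on normal replicate 3, without which it was -0.59. TIE1 had 31, 25 and 43 counts against 14, 21 and 24, which is an FPKM of 0.178, 0.137 and 0.241 against 0.0984, 0.146 and 0.125. Here PVR replicate 2 lay just above normal replicate 2, and the log2 fold change was -0.65 (SE 0.41, edgeR adjusted p = 0.388).

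Of 5 genes that act on these receptors (ANGPT1, ANGPT2, ANGPT4, PTPRB and SVEP1), none passed edgeR's thresholds. ANGPT2, the ligand that loosens vessels, had an FPKM of 6.39, 7.86 and 8.57 in the normal retinas and 12.7, 16.4 and 9.86 in the PVR retinas. Every PVR sample was above every normal one, with a log2 fold change of 0.70 (SE 0.19, edgeR adjusted p = 0.111). ANGPT4 varied widely within PVR, at 5.48, 10.4 and 1.09 FPKM, and its log2 fold change was 0.03 (SE 0.68), with a sign that depended on the setting. PTPRB, the endothelial phosphatase that restrains TEK, was named after its values were seen. It had 139, 304 and 630 counts in the normal retinas and 72, 51 and 80 in the PVR retinas, and a log2 fold change of -2.29 (SE 0.51, edgeR adjusted p = 0.0735). Of the 5 genes, 3 had an unadjusted p under 0.05, against 21.2% of all genes tested. DESeq2 called PTPRB lower and SVEP1 higher, but not ANGPT2. SVEP1, also named after its values were seen, had 90, 73 and 55 counts in the normal retinas and 177, 184 and 138 in the PVR retinas. Its log2 fold change was 1.32 (SE 0.32, edgeR adjusted p = 0.0884).

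ERG, an ETS-family transcription factor that upholds endothelial identity, had 10, 13 and 28 counts in the normal retinas and 0, 1 and 0 in the PVR retinas. All PVR retinas were under the limit of 3 counts, and ERG was at least 5.19-fold lower in mean CPM against that limit. Because the filter kept ERG through the normal libraries alone, no p from the fit is given for it. EGFL7 encodes a protein that endothelial cells secrete into the matrix around them. It had 57, 59 and 28 counts in the normal retinas and 27, 49 and 45 in the PVR retinas. The groups overlapped, and in contrast to most of the other genes normal replicate 3 was the lowest normal sample. The log2 fold change was -0.16 (SE 0.43, edgeR adjusted p = 0.848) and its sign was not stable, with 0.00, 0.02 and 0.01 without normal replicate 1, normal replicate 2 and PVR replicate 1.

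Of the 7 genes not chosen on their values, edgeR called 0 at a log2 fold change beyond 1 in size and an adjusted p under 0.05, against 1.01% of all genes tested. At an unadjusted p under 0.05 there were 2, CLDN5 and ERG, where the share of all genes tested was 21.2%. DESeq2 called the same 2 genes lower, where it called 1.21% of the genes with an adjusted p lower. Both genes had passed the filter only through the normal libraries, so these counts support nothing. Of the 5 genes that passed through both groups (PECAM1, TIE1, TEK, ESAM and EGFL7), edgeR and DESeq2 called 0, and 0 had an unadjusted p under 0.05. In 3 of the 7 (CLDN5, ERG and ESAM) all PVR retinas were below all normal retinas in FPKM, as in 9.69% of all genes tested. For each of these 3 an exact permutation test (2-sided, on FPKM means) gave p = 0.1, and no lower p is possible with 3 samples in each group. Only ESAM had passed the filter through both groups, so 1 of the 5 such genes was without overlap. For CLDN5 and ERG the lack of overlap and the p support nothing, given how they passed the filter. The median log2 fold change of the 5 genes was -0.50, beside -0.01 over all genes tested, and 4 of them had a negative fitted value. Without normal replicate 3 their median was -0.44.

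**Figure D2:**
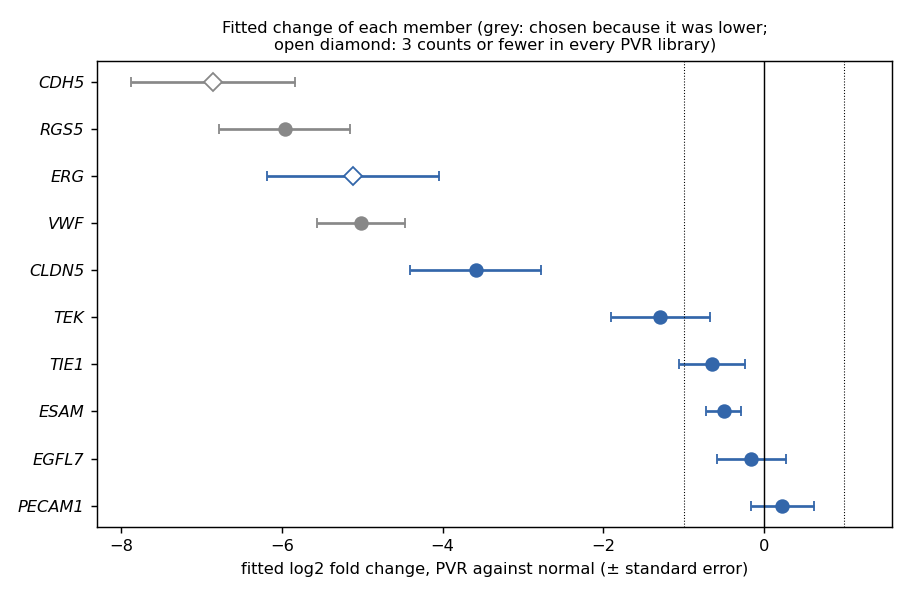
Fitted log2 fold change, PVR against normal (horizontal axis), with its standard error for each of the 10 genes; dotted lines mark the fold threshold. The values run from -6.86 for CDH5 to 0.23 for PECAM1, grey symbols are the 3 genes selected because they were lower, and open diamonds are CDH5 and ERG, whose PVR counts are at or under 3, so that their fitted values are not a measure of size.

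The normal retinas differed widely among themselves in some of these genes. For VWF, CDH5, CLDN5, ERG, TEK and RGS5, normal replicate 1 was lowest and normal replicate 3 highest in CPM, a pattern that 18.4% of all genes tested had. Of these, VWF, CDH5 and RGS5 were chosen on their values, and CLDN5 and ERG passed the filter only through the normal libraries. Among the 5 genes that were not chosen and passed through both groups, 1 (TEK) had this pattern. The ratio of replicate 3 to replicate 1 was 6.83 for RGS5, 6.56 for CLDN5, 4.09 for CDH5, 3.97 for VWF, 3.58 for TEK and 2.67 for ERG. It was 1.69 for PECAM1, 1.32 for TIE1, 0.889 for ESAM and 0.468 for EGFL7, and its median over all genes tested was 0.999. The SD of the normal retinas was accordingly 78.4% of the mean CPM for CLDN5 and 76.8% for RGS5, but 15.4% for ESAM. Across the 6 samples, which share both groups and the difference between them, log2 CPM values of VWF, CDH5, ERG and RGS5 had Pearson correlations of 0.97 to 0.99 with each other. Those of PECAM1 with the other 9 genes lay between -0.53 and 0.14, and those of EGFL7 between -0.61 and 0.14. VWF, CDH5 and RGS5 were chosen on the group difference and ERG was kept only through the normal libraries, so their high correlations support nothing.

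**Figure D3:**
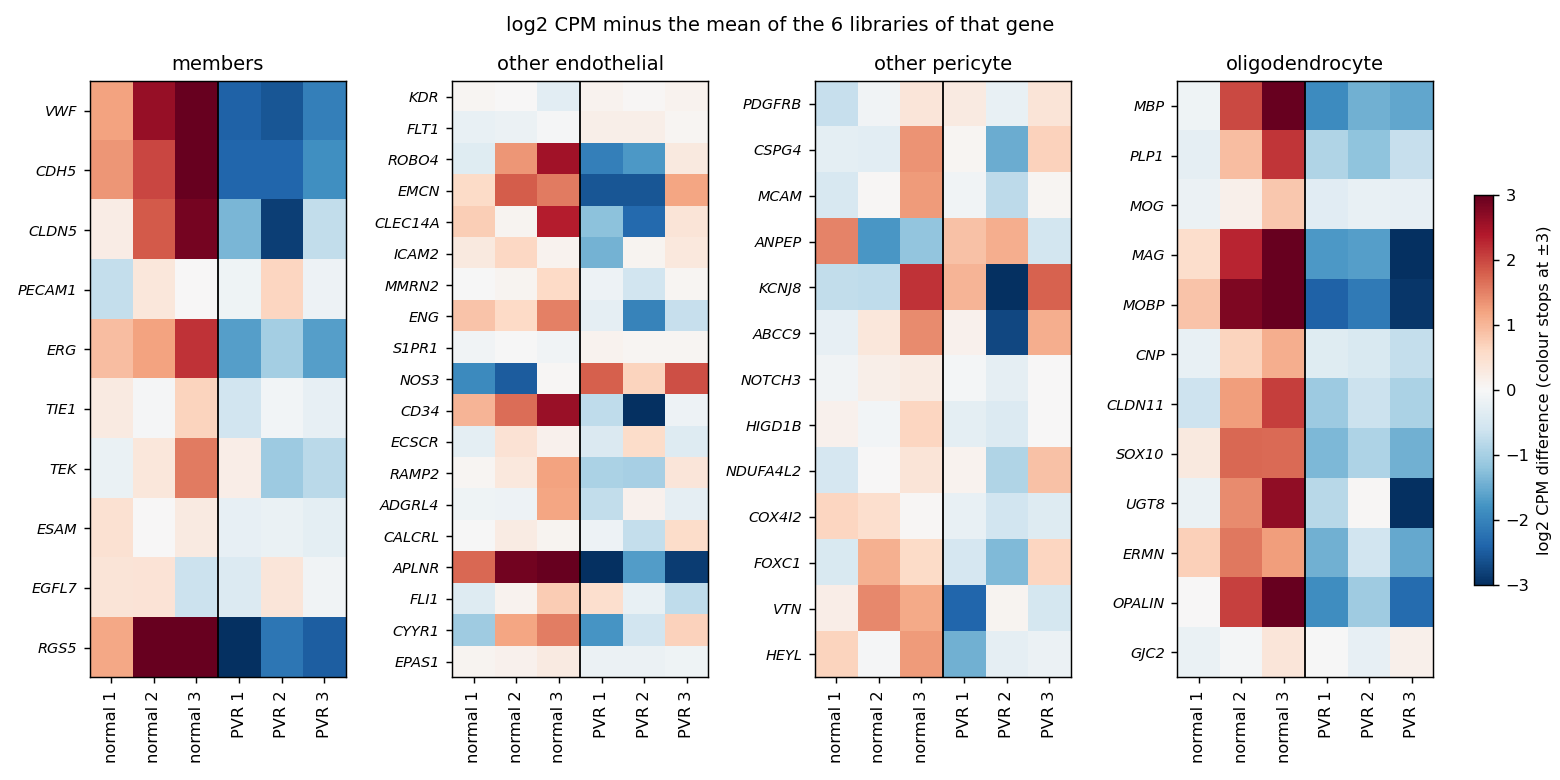
Level of each tested gene in each library as log2 CPM minus the mean over the 6 libraries of that gene (colour, cut at ±3), for the 10 genes, the other endothelial genes, the other pericyte genes and the oligodendrocyte genes. Normal replicate 3 is at or near the top of the colour range in VWF, CDH5, CLDN5 and RGS5 and also in APLNR, MBP, MAG and MOBP, whereas KDR, FLT1, S1PR1 and EPAS1 are nearly without colour in all libraries.

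A list of 28 other endothelial genes was examined beside the 10, of which 27 were matched and 19 could be tested. Of these 19, edgeR called 1 lower and 0 higher, against 0.316% of all genes tested that were called lower. The median log2 fold change was -0.59, with 15 negative and 4 positive fitted values, and it was -0.26 without normal replicate 3. Of the 19, 7 had an unadjusted p under 0.05, against 21.2% of all genes tested. DESeq2 called 2 lower and 1 higher, against 243 lower and 564 higher of 20052 genes with an adjusted p. The gene that edgeR called lower was APLNR, the apelin receptor of venous and sprouting endothelium. It had 67, 158 and 215 counts in the normal retinas and 0, 4 and 1 in the PVR retinas, so that the lowest normal sample was 14.8-fold above the highest PVR sample in CPM. The log2 fold change of APLNR was -6.24 (SE 0.85, edgeR adjusted p = 0.0238), and its call carries the limit that the filter kept APLNR only through the normal libraries. The same held for 7 of the 19 genes in all, and 1 was kept only through PVR. The adjusted p of APLNR was over 0.05 without normal replicate 2 (0.0764) and without PVR replicate 1 (0.121).

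This list was also divided by level, a division made after the values were seen and not tested. KDR, FLT1, S1PR1 and EPAS1 had a mean FPKM over 10, far above any of the 10 identity genes, and log2 fold changes between -0.32 and 0.27. S1PR1 and EPAS1 are also known in glia. Over all samples the mean FPKM was 69.3 for KDR and 29.5 for FLT1, against 1.82 for ESAM, the highest of the identity genes. Which cells gave the KDR, FLT1, S1PR1 and EPAS1 values was not tested, so their differences cannot be read as those of endothelial cells. For KDR, the main receptor for VEGF, the mean FPKM was 63.5 ± 7.87 in the normal and 75.0 ± 1.53 in the PVR retinas (SD, n = 3 each), with an adjusted p of 0.435 from edgeR. EPAS1, a hypoxia-inducible factor, had 89.3 ± 7.75 and 75.0 ± 0.519, with an adjusted p of 0.107 from edgeR. The 15 genes with lower levels had 14 negative values and a median of -1.06, but these 15 include the 7 genes kept only through the normal libraries. NOS3, the endothelial nitric oxide synthase, was the exception with 1, 0 and 10 counts in the normal retinas and 32, 14 and 47 in the PVR retinas (edgeR adjusted p = 0.156). NOS3 passed the filter only through the PVR libraries, so its fitted difference is conditioned on being high there. The 8 genes under the filter were SOX7, SOX17, SOX18, GPIHBP1, ESM1, CLEC1A, MYCT1 and BMX, and they too went both ways. SOX18, a transcription factor of vessel growth, had 13, 20 and 7 counts against 0, 0 and 1. GPIHBP1, which holds lipoprotein lipase on capillaries, had 1, 9 and 23 counts in the normal retinas and none in PVR. CLEC1A had 0, 3 and 6 counts against 29, 33 and 6.

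The proteins that CDH5 and CLDN5 bind inside the cell are not particular to endothelium. Of 14 genes for junction partners and barrier transporters, all tested, edgeR called 1 lower and 0 higher, with a median log2 fold change of -0.15. Of all genes tested, edgeR called 0.316% lower. An unadjusted p under 0.05 was found for 6 of the 14, against 21.2% of all genes tested. DESeq2 called 2 lower, MFSD2A and ABCB1, against 1.21% of the genes with an adjusted p. ABCB1, a drug efflux pump of barrier endothelium, was named after its values were seen. Its counts were 134, 325 and 504 against 76, 86 and 87, and its log2 fold change was -1.83 (SE 0.44, edgeR adjusted p = 0.0856). The one called by edgeR was MFSD2A, a lipid transporter needed for the endothelial barrier of brain and retina. MFSD2A had 84, 104 and 63 counts in the normal retinas and 7, 10 and 16 in the PVR retinas, without overlap. Its normal retinas lay close together, and it too passed the filter only through the normal libraries. In contrast to VWF and RGS5, MFSD2A was lowest in normal replicate 3 among the normal retinas. Which cells gave the MFSD2A values was not tested. Its log2 fold change was -2.85 (SE 0.40, edgeR adjusted p = 0.0249). The adjusted p was over 0.05 without normal replicate 1 (0.0818), normal replicate 2 (0.101), PVR replicate 1 (0.176) or PVR replicate 2 (0.0722), while the log2 fold change stayed between -3.06 and -2.66 without single samples. CTNNB1, the catenin that joins VE-cadherin to the cytoskeleton, had an FPKM of 158 ± 14.6 (SD, n = 3) against 154 ± 9.75 (SD, n = 3), and its adjusted p was 0.605 from edgeR. SLC2A1, the glucose transporter of barrier endothelium and of photoreceptors, was lower in PVR, with an FPKM of 314 ± 19.8 against 232 ± 3.38 and an adjusted p of 0.0466 from edgeR. Its log2 fold change of -0.51 did not reach the fold threshold. Of 7 genes of the Norrin and Wnt pathway, which builds and keeps this barrier, 0 passed in edgeR, 0 had an unadjusted p under 0.05 and 0 were called by DESeq2. Their median log2 fold change was -0.20.

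Adhesion and clotting genes of endothelium had a positive median log2 fold change of 0.61. Of 8 such genes, 7 were matched and 5 tested, and 1, THBD, was called higher by edgeR, against 129 of 18697 genes tested. An unadjusted p under 0.05 was found for 2 of the 5, against 21.2% of all genes tested. DESeq2 called THBD and ICAM1 higher, against 564 of 20052 genes with an adjusted p. ICAM1, a leukocyte adhesion molecule named after its values were seen, had 74, 93 and 11 counts against 207, 210 and 299 (log2 fold change 2.08, SE 0.64, edgeR adjusted p = 0.133). THBD encodes thrombomodulin, a brake on clotting that other cell types also make. Its FPKM was 2.35, 1.55 and 2.53 in the normal retinas and 7.36, 4.68 and 9.91 in the PVR retinas, with a log2 fold change of 1.71 (SE 0.31, edgeR adjusted p = 0.0463). The groups were far apart, but the adjusted p was over 0.05 without any 1 of the normal retinas (0.134, 0.143 and 0.0518 for replicates 1 to 3) and without PVR replicate 1 (0.225). VWF, PECAM1 and ESAM are also platelet genes, and platelet-rich plasma was injected in the PVR group. The summed FPKM of 9 matched platelet genes was 4.11 to 7.48 in the normal retinas and 6.46 to 8.04 in the PVR retinas. Of 6 tested, 0 were called by edgeR or DESeq2, and 1 had an unadjusted p under 0.05. The platelet-specific TREML1 had 0 counts in every library, CLEC1B had 1 count in a single normal library, and PPBP had 1, 18 and 0 counts in the normal retinas and 11, 25 and 28 in PVR (log2 fold change 1.80, SE 1.14, edgeR adjusted p = 0.394).

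Other pericyte genes were read beside RGS5. Of 16 such pericyte genes, all matched and 13 tested, edgeR called 0 in either direction and DESeq2 called 0. An unadjusted p under 0.05 was found for 2, against 21.2% of all genes tested. Of the 13, 4 passed the filter only through the normal libraries, and their fitted differences are conditioned on being high there. With these 4 included, the median log2 fold change of the 13 was -0.49, with 10 negative and 3 positive values. It was -0.02 without normal replicate 3, -0.24 without PVR replicate 2 and -0.90 without PVR replicate 3. The tested genes with the highest levels were COX4I2 and NDUFA4L2, mitochondrial subunits that are enriched in pericytes. The FPKM of COX4I2 was 22.8 ± 4.45 in the normal and 13.7 ± 1.62 in the PVR retinas (SD, n = 3 each), without overlap (log2 fold change -0.81, edgeR adjusted p = 0.0870). NDUFA4L2 had 5.07 ± 1.59 and 6.07 ± 3.41 (log2 fold change 0.20, edgeR adjusted p = 0.815). PDGFRB, the receptor that recruits pericytes, had 289, 444 and 629 counts against 480, 351 and 693, which overlap. KCNJ8 and ABCC9, the subunits of the pericyte potassium channel, were uneven in both groups. KCNJ8 had 11, 11 and 100 counts against 36, 0 and 83, and ABCC9 had 28, 44 and 99 against 32, 3 and 84. Of 9 smooth muscle genes, all matched and 8 tested, edgeR called 0, with a median log2 fold change of 0.09. An unadjusted p under 0.05 was found for 3, against 21.2% of all genes tested. DESeq2 called 1 higher, against 564 of 20052 genes with an adjusted p.

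**Figure D4:**
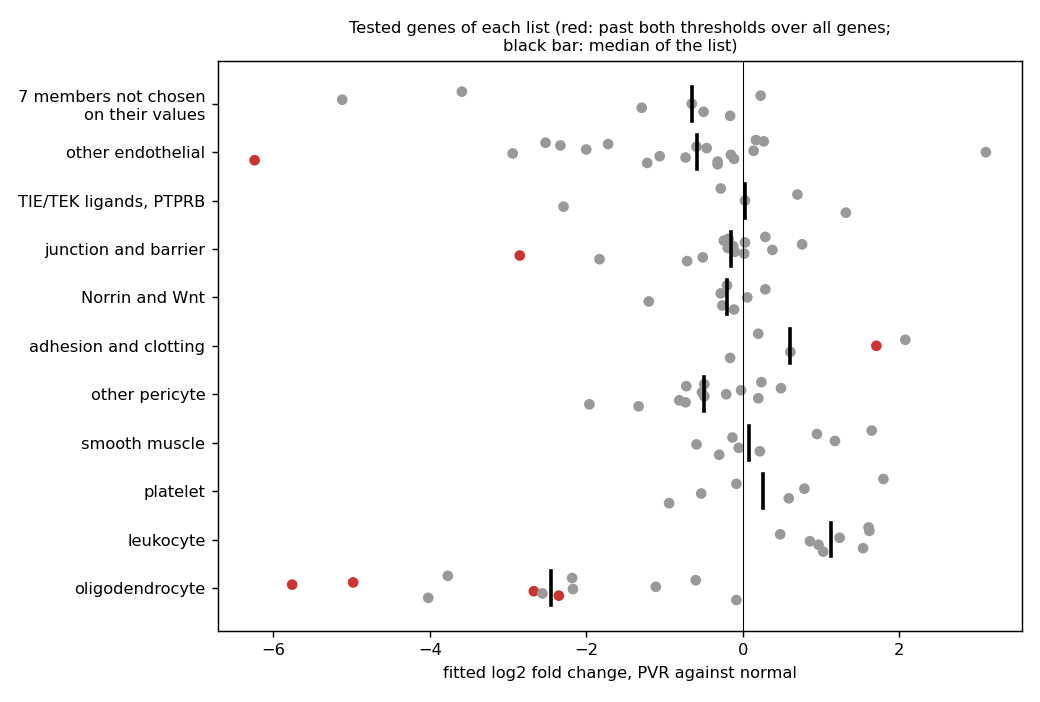
Fitted log2 fold change, PVR against normal (horizontal axis), of every tested gene in each list; red points passed both thresholds in edgeR over all genes, and black bars are medians. The 3 genes chosen on their values are left out. APLNR, MFSD2A and THBD are the red points among the vascular lists, and the medians are -0.65 for the 7 identity genes, -0.59 for the other endothelial genes, -0.49 for the other pericyte genes and -2.45 for the oligodendrocyte genes. In this order, these lists include 2, 7, 4 and 2 genes kept by the filter only through the normal libraries. The median of the 5 identity genes that passed through both groups is -0.50.

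Genes of the other cells of the medullary rays were read in the same libraries. The summed FPKM of 14 oligodendrocyte genes was 95.1, 219 and 465 in normal replicates 1 to 3 and 61.3, 59.3 and 64.3 in the PVR retinas. That of the 10 identity genes was 5.98, 9.85 and 16.5 against 3.04, 3.60 and 3.17, so both sums rose from normal replicate 1 to 3. The sum of the 10 includes the 3 genes chosen on their values. It also includes CLDN5 and ERG, which passed the filter only through the normal libraries. For the other 5 genes the sums were 3.74, 3.38 and 3.77 against 2.74, 3.42 and 2.68, without that order. Of 12 tested oligodendrocyte genes, 11 had an unadjusted p under 0.05, against 21.2% of all genes tested. DESeq2 called 9 lower, against 1.21% of the genes with an adjusted p. All 12 had negative fitted values, and 10 had normal replicate 1 lowest and normal replicate 3 highest, against 18.4% of all genes tested. In edgeR 4 were called lower (MAG, MOBP, SOX10 and ERMN), against 0.316% of all genes tested. MAG and MOBP passed the filter only through the normal libraries. Each of the 4 lost its call without normal replicate 2 and without PVR replicate 1, where the adjusted p from edgeR was between 0.0722 and 0.239. The calls of MAG and SOX10 were also lost without PVR replicate 2 or 3, that of MOBP without PVR replicate 2 and that of SOX10 without normal replicate 3 (0.0518 to 0.119). Of 5 astrocyte genes, edgeR called 0, 3 had an unadjusted p under 0.05 and DESeq2 called 1 lower. Their median log2 fold change was -0.03, with 3 negative and 2 positive fitted values, so the list as a whole did not go one way. PAX2, which marks retinal astrocytes, had 31, 33 and 128 counts in the normal retinas and 1, 0 and 4 in the PVR retinas (edgeR adjusted p = 0.0541, kept by the filter only through the normal libraries). GFAP, which both astrocytes and reactive Mueller glia express, had 2236, 7072 and 9885 counts against 14372, 15192 and 16979. Of 7 tested genes of the retinal pigment epithelium, 2 (LRAT and TTR) were also called lower by edgeR, against 0.316% of all genes tested. The adjusted p values of LRAT and TTR ran up to 0.240 and 0.227 over the alternatives. Of the 7, 4 had an unadjusted p under 0.05, and DESeq2 called 3 lower. How much of the retina's vascular and myelinated band each sample held is not given in the labels, and the part of these cells in the values of the 10 genes was not tested.

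Among the 13532 other genes with a symbol, those most like the mean standardised profile of the 10 genes over the 6 samples were APLNR, NRDE2, SPG7, BRF2, MOBP and XPNPEP1, with Pearson correlations of 0.988 to 0.994. The likeness ignores the size of the differences and reflects the 2 groups. Not all of the 10 genes follow this profile, which includes the genes chosen on their values: PECAM1 and EGFL7 had correlations of -0.06 and 0.02 with it. Only APLNR and MOBP among the 6 were past the thresholds in edgeR. MOBP, a myelin gene, had 86, 345 and 719 counts in the normal retinas and 6, 8 and 5 in the PVR retinas, a log2 fold change of -5.76 (SE 0.83, edgeR adjusted p = 0.0285). NRDE2, SPG7, BRF2 and XPNPEP1 had log2 fold changes between -0.37 and -0.08 only.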

How the data were processed

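Polyadenylated RNA of 3 normal and 3 PVR rabbit retinal samples was sequenced by the authors. Per the labels and the study's methods, reads were trimmed with fastp, aligned to OryCun2.0 with HISAT2 and counted per gene with htseq-count; the annotation release and strand setting are not given in the sources used here. The authors deposited raw counts and FPKM values. Both rest on the same reads: counts divided by FPKM gave 1 length per gene (largest relative difference 4.24e-09).

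Counts were tested in R 4.3.3 with edgeR 4.0.16 (default filter, TMM factors, quasi-likelihood test, condition only, Benjamini-Hochberg adjustment over 18697 genes). A standard error is the log2 fold change divided by the square root of F. CPM values use TMM factors, and log2 CPM a prior count of 2. Alternatives were DESeq2 1.42.0, RLE and upper-quartile factors, limma-voom (limma 3.58.1), no filter, a minimum of 10 counts in all samples, leaving out single samples, adding the replicate block, and limma on FPKM after log2 with 1 or 0.1 added. Scripts were tested on simulated data. Exact permutation tests used SciPy 1.17.1. Detection limits of 3 counts cover counting error only.

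The members and lists were chosen with earlier results of these data known. Genes named in the text are the 10 genes, list genes past both thresholds, the 2 with the highest mean FPKM of the lists discussed singly, and the 6 most alike. Besides these, NOS3, PTPRB, SVEP1, ABCB1, ICAM1, PAX2, GFAP, PDGFRB, KCNJ8, ABCC9, FLT1, S1PR1, platelet and globin genes and genes under the filter were named after their values were seen. The rule also covered the 2 most abundant genes of the remaining lists, most of which are given in sums and counts only. Of list genes without their symbol in the files, 6 were matched by RefSeq's annotation of mOryCun1.1, used for names only; unmatched genes, sequences and genome positions are not reported here.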

Additional observations from a re-analysis of the deposited data

How the results depend on the processing

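Of the 7 identity genes not chosen on their values, 0 passed in 14 of the 15 alternatives and 2 with DESeq2. The log2 fold changes of VWF, CDH5, CLDN5, ERG, TIE1, TEK, ESAM and RGS5 were negative in every alternative that could be fitted. VWF, CDH5 and RGS5 were chosen because they were lower, and CLDN5 and ERG passed the filter only through the normal libraries. For these genes the constant sign supports nothing. CDH5, CLDN5, ERG and RGS5 fell under the filter of at least 10 counts in every sample, and ERG under the default filter without normal replicate 2 or 3. On the log2(FPKM + 1) scale, where low values are compressed, VWF was at -1.28, RGS5 at -1.51, CLDN5 at -1.43, CDH5 at -0.39 and ERG at -0.16. Without single samples, PECAM1 ranged from -0.08 to 0.49, EGFL7 from -0.44 to 0.02, NDUFA4L2 from -0.32 to 0.55 and ANGPT4 from -0.74 to 0.51. ANGPT4 was also at -0.52 with limma-voom, -0.16 and -0.29 with log2(FPKM + 1) and log2(FPKM + 0.1), and -0.24 with the replicate block. The median of the other endothelial genes was -0.12 with log2(FPKM + 1), and that of the other pericyte genes was -0.90 to -0.02 without single samples.

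Over all genes, 129 were called higher and 59 lower. DESeq2 called 564 higher and 243 lower, of 20052 genes with an adjusted p. The calls were 68 and 19 with log2(FPKM + 1), 98 and 31 with at least 10 counts in every sample, and 92 and 37 with limma-voom. Without single samples they ranged from 16 to 373 higher and from 6 to 159 lower: 39 and 42, 46 and 18, and 211 and 159 without normal replicates 1 to 3, and 16 and 6, 70 and 23, and 373 and 63 without PVR replicates 1 to 3. The cause was not tested. RLE and upper-quartile factors moved the median of all genes by less than 0.1.

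Samples of the 2 groups share only a replicate number: their deviations had correlations of -0.0129, 0.0734 and 0.0417, and normal replicate 1 was most like PVR replicate 3 (0.0427). With the replicate block 56 genes were higher and 26 lower, and 0 of the 7 identity genes passed. Low counts limit ERG, CDH5, TIE1, TEK, EGFL7 and PECAM1, none of which exceeded 103 counts in a library.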

Other observations

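Of 9 genes of the subfamily of small RGS proteins other than RGS5, 7 were matched and 5 tested, and their median log2 fold change was 0.02. There were 0 calls by edgeR past both thresholds and 0 by DESeq2. An unadjusted p under 0.05 was found for 1, against 21.2% of all genes tested. RGS4 had 246, 192 and 261 counts in the normal retinas and 169, 126 and 327 in the PVR retinas. RGS2 had 3768, 3542 and 3062 counts against 4524, 4723 and 6279, a log2 fold change of 0.67 (SE 0.10, edgeR adjusted p = 0.0322), which is under the fold threshold.

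Red blood cell genes were examined as a sign of blood in the tissue. The alpha globin gene HBA had 680, 741 and 845 counts in the normal retinas and 285, 229 and 518 in the PVR retinas, and HBB2 had 581, 424 and 268 against 207, 171 and 403. Of 3 tested genes, edgeR called 0 and DESeq2 called 1 lower, against 1.21% of the genes with an adjusted p. An unadjusted p under 0.05 was found for 1, against 21.2% of all genes tested.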
